A study of Sus scrofa with 45 samples.

Results

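Whole blood of pigs fed HFCD, a feed high in fat and cholesterol, was followed over 3 sampling times on 11 of the 45 arrays of the series. The arrays were chosen by their labels, as every whole blood array from that diet. Each holds blood of Clawn miniature pigs, all male, which were 12 weeks old when the feeding began. HFCD held 15% lard and 2% cholesterol. The group at 10 weeks of feeding has 4 arrays from pigs about 22 weeks old, the group at 19 weeks has 4 arrays from pigs about 31 weeks old, and the group at 27 weeks has 3 arrays from pigs about 39 weeks old. The study kept 5 pigs on each of 3 diets, and the other diets are a control feed (12 whole blood arrays at the same weeks and ages) and HFCSD, which adds sucrose (10 whole blood arrays at the same weeks and ages). The same pigs were kept and bled throughout, so if each array of a week is a different pig, at least 3 pigs were measured at both 10 and 19 weeks and at least 2 at both 10 and 27 weeks. The labels do not say which arrays share a pig, and each fit and permutation here treats the 11 arrays as independent, which repeated bleeding of 5 pigs does not give.

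Whole blood is a mixture of red cells, platelets and several kinds of white cells, and its RNA comes mostly from white cells, platelets and young red cells that still carry transcripts. Neutrophils and monocytes take up microbes and lipid, T and B lymphocytes carry antigen receptors, and NK cells kill infected cells. Interferons switch on a broad set of antiviral genes in nearly all of these cells, and sterols act on the transcription factors that set cholesterol synthesis and efflux. Fewer cells of a type and less RNA per cell cannot be told apart in such a mixture.

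Markers of the blood cells were covered unevenly, because few probes carry a gene name. Of 4 leukocyte markers 2 are on the array with 4 probes, all well above background on all 11 arrays, and their mean level was 9.94 (0.09), 10.00 (0.17) and 10.06 (0.54) log2 units at 10, 19 and 27 weeks (mean with SD), with the brightest probe for LAPTM5. Probe brightness also depends on the probe, so it does not rank transcripts of different genes. All 4 T cell markers are present with 9 probes at 7.85 (0.22), 7.43 (0.28) and 7.05 (0.40), with the brightest probe for CD3D. Of these probes 8 were above background on all 11 arrays, and a CD2 probe on 3. They did not move alike. The brightest CD3D probe had means of 12.098, 12.185 and 11.974, a CD3G probe 5.59, 5.93 and 5.65, and another CD2 probe 8.46, 7.90 and 7.07. Neutrophils are marked by CXCR2 alone, 1 of 4. The single NK cell marker of 3 is KLRK1, an activating receptor, which read 8.90, 9.34, 9.16 and 7.09 after 10 weeks, 11.78, 9.55, 9.83 and 10.26 after 19 and 10.75, 10.18 and 10.38 after 27. Its later arrays all lay above the early ones, but neither log2 change passed the test, 1.74 to 19 weeks (adjusted p 0.105 in limma) and 1.81 to 27 weeks (adjusted p 0.135). Monocyte markers, 2 of 3 with 5 probes and the brightest for CD68, averaged 8.55 (0.32), 7.65 (0.38) and 8.23 (0.32). Of these probes 3 were above background on all 11 arrays. A CD68 probe in this mean was above background on 5 arrays, with means of 4.95, 3.27 and 3.46, and a CD14 probe on 9. Red cell precursors could not be checked with the markers, since 1 of 8 is on the array and its alpha globin probe was above background on 0 arrays. HBE1, a globin gene, was bright throughout at 13.13 (1.05), 13.71 (1.07) and 13.77 (0.32). Of the tissues that should be absent, the liver marker ALB and the skeletal muscle marker MYH1 were above background on 0 arrays. The smooth muscle marker ACTA2 was above background on all 11 arrays with 2 of its 3 probes and on 9 with the third, and its brightest probe had means of 8.12, 6.67 and 7.46. The adipose markers were above background on 2 arrays for FABP4 and on 1 array for a single probe of ADIPOQ. The part of such RNA in the results was not tested.

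Platelet markers, 3 of 4 with 4 probes, differed widely within 1 week. PF4, the platelet chemokine and the marker with the brightest probe, read 12.84, 12.81, 13.06 and 12.82 after 10 weeks, 10.68, 13.38, 13.54 and 8.79 after 19 and 13.30, 13.33 and 12.77 after 27. Replicates 1 and 4 at 19 weeks were low and the other 9 arrays lay close together. The mean of the platelet markers was 8.53 and 7.67 on those 2 arrays against 11.27 and 11.61 on the other 2 of that week.

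Some arrays stood apart before any test. The share of probe spots well above background was 49.5%, 43.1%, 45.4% and 53.3% after 10 weeks, 43.5%, 40.1%, 39.6% and 37.6% after 19, and 48.9%, 43.6% and 46.0% after 27. The share differed between weeks (F 5.36, exact permutation p 0.0383), with 19 weeks lowest. That permutation p was above 0.05 without replicate 1 (0.0743) or 4 (0.0533) at 10 weeks, without replicate 2 (0.08), 3 (0.0833) or 4 (0.102) at 19 weeks, and without replicate 1 (0.0508) or 3 (0.0667) at 27 weeks. Replicate 1 at 19 weeks had a mean r of 0.901 with the other 10 arrays, the lowest of the 11. Arrays of the same week had a mean r of 0.944 and arrays of different weeks one of 0.936, a difference that did not pass the exact permutation test (one-sided p 0.173). Without replicate 1 at 19 weeks that p was 0.02, and without replicate 4 at 10 weeks the difference was -0.00117.

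Probe composition moved with some arrays. The correlation over probes between level and GC content was -0.182 on replicate 1 at 19 weeks and between 0.0161 and 0.0179 on the other 3 of that week. It ran from -0.0231 to 0.0471 at 10 weeks and from -0.0728 to -0.0143 at 27 weeks. Probes are not independent replicates, and the GC measure and the count of arrays apart were both chosen after the results were seen. Among tested probes at 19 weeks, 1807 of 18879 had 1 array far from the other 3 by Dixon's ratio at its 95% limit, and in 77.6% of them that array was replicate 1. Chance alone puts about 1 in 20 groups past that limit. At 10 weeks it was 877 of 18855, with replicate 2 the array apart in 56.2%.

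**Figure D1:**
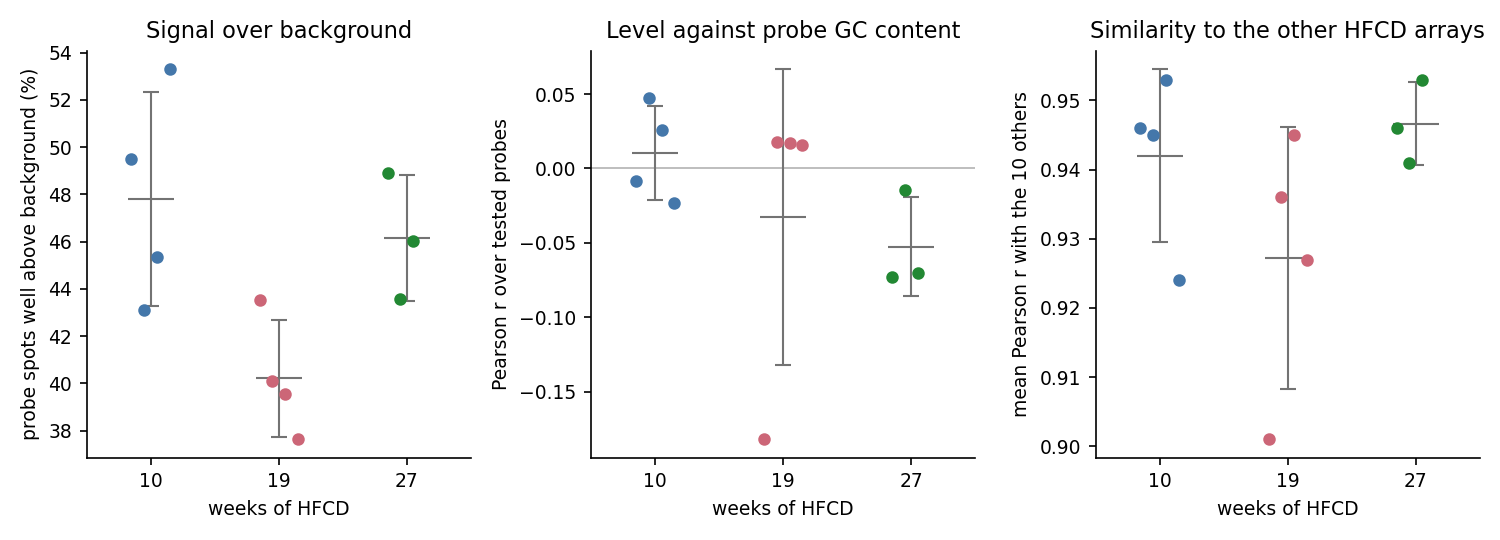
Share of probe spots well above background (percent), correlation of level with probe GC content, and mean correlation with the 10 other arrays, 1 point per HFCD array by week. Replicate 1 at 19 weeks lies lowest in the correlation with GC content (-0.182) and in the mean correlation with other arrays (0.901).

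Scanning coincided with time. All HFCD arrays of 10 weeks were scanned on 1 day, those of 19 weeks on another and those of 27 weeks on yet another, on 9 slides of which 2 hold more than 1 HFCD array. Week of feeding, age of the pigs and scan day therefore cannot be told apart within the diet.

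Between 10 and 19 weeks under HFCD, probes that rose included 8 of 34 in the list of respiratory chain and ATP synthase, 2 of them for ROMO1, and 4 of 79 for cytosolic ribosomal proteins. Probes that fell included 5 of 28 in the cell cycle list, each for STMN1 or TUBA1B, 4 of 31 for fatty acid use and lipid droplets and 2 of 28 for MHC class I and peptide loading. ALDH2 and ARF6 each had a probe that fell, and DNMT1, STAG3 and CETN3 each had one that rose. Falls outnumbered rises in the called genes. In limma 657 of 18881 tested probes passed (3.48%), of which 178 rose (0.943%) and 479 fell (2.54%), and over all tested probes the median change was -0.09. The passing probes with a gene name numbered 111 and covered 95 genes, 27 with a rise and 69 with a fall. Arrays of the weeks did not overlap for 840 probes higher at 19 weeks (4.45%) and 2139 lower (11.3%).

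These calls rest on few arrays. Leaving out replicate 1 or replicate 3 at 10 weeks left 0 calls in limma (3264 and 3193 probes at an unadjusted p below 0.05) and leaving out replicate 4 left 1, whereas leaving out replicate 1 at 19 weeks gave 1438, and with slide as a random block there were 0, with 3290 probes at an unadjusted p below 0.05. Without replicate 3 or 4 at 19 weeks, or replicate 3 at 27 weeks, the count was 243, 75 and 311, and with the share of spots above background as a covariate it was 0 in limma (4939 unadjusted).

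ALDH2, the mitochondrial enzyme that clears acetaldehyde, read 5.55, 5.75, 6.17 and 6.13 after 10 weeks, 1.38, 4.25, 3.81 and 1.35 after 19 and 3.17, 1.76 and 1.64 after 27. The 4 early arrays all lay above the 7 later ones. It was well above background on 4, 0 and 1 arrays. Where a probe is well above background on no array of a group, only a bound on the fold can be given, set by the lowest level that any probe well above background has on each array of that group. ALDH2 was at least 3.22-fold lower at 19 weeks on this probe (adjusted p 0.0312 in limma), and no size is given for its fall to 27 weeks (adjusted p 0.0242), which rests on values mainly below background. A probe with no array above background in a group entered the test through the group where it is high, so its p compares signal with background and its log2 change is not given. The other 2 ALDH2 probes, both brighter, did not pass, with log2 changes of -0.47 and -1.76 to 19 weeks and of -0.07 and -2.21 to 27 weeks. Of the called genes 85 have several tested probes, and in 21 of these the probes had both signs of change to 27 weeks.

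SIRT3, a mitochondrial deacetylase, read 4.18, 4.34, 4.06 and 4.36 after 10 weeks, 2.32, 1.54, 1.43 and 1.42 after 19 and 1.40, 3.38 and 1.62 after 27. The 10-week arrays lay above all later ones, but their signal was just above background. No later array was above background, so the fall was at least 1.04-fold to 19 weeks (adjusted p 0.0188 in limma) and at least 1.69-fold to 27 weeks (adjusted p 0.0292). KIT, the receptor kinase of blood progenitors and mast cells, read 4.57, 5.17, 6.43 and 6.54 after 10 weeks, 1.64, 3.52, 3.87 and 3.43 after 19 and 4.17, 2.75 and 4.18 after 27. Each later array lay below each early one, and the fall was at least 2.82-fold to 19 weeks (adjusted p 0.0446, again against background), while the change of -1.98 to 27 weeks did not pass (adjusted p 0.124). A second KIT probe did not pass, with -1.45 to 19 weeks and 0.18 to 27 weeks.

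ARF6, a small GTPase of traffic at the plasma membrane, was bright on every array. It read 10.29, 9.95, 10.27 and 10.72 after 10 weeks, 8.05, 8.12, 8.0 and 8.26 after 19 and 8.52, 7.75 and 7.70 after 27. Early and later arrays were well apart, and the later weeks overlapped each other. The level fell 4.60-fold to 19 weeks (log2 change -2.20, adjusted p 0.0143 in limma) and 5.0-fold to 27 weeks (-2.32, adjusted p 0.0112). RSC1A1, a regulator of sodium-glucose transport, behaved alike on 1 of its probes, with 7.92, 7.81, 8.11 and 7.88 at 10 weeks and 5.33, 5.96, 6.23 and 5.76 at 19 weeks. All of the later values were lower, a 4.31-fold fall (adjusted p 0.0156), and its log2 change to 27 weeks was -2.18 (adjusted p 0.013). Another probe for RSC1A1 had log2 changes of 0.21 to 19 weeks and 0.35 to 27 weeks that did not pass.

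DNMT1, the enzyme that copies DNA methylation after replication, went opposite ways on different probes. The gene has 4 tested probes, of which 2 passed to 19 weeks and 1 to 27 weeks. The probe that rose read 5.12, 5.31, 5.04 and 4.65 after 10 weeks, 6.88, 6.60, 7.06 and 7.47 after 19 and 6.21, 5.61 and 6.51 after 27. Arrays of 19 weeks all lay above those of 10 weeks, a 3.92-fold rise (log2 change 1.97, adjusted p 0.0156 in limma). A second DNMT1 probe fell, with means of 7.42, 5.89 and 6.33 and log2 changes of -1.53 (adjusted p 0.0182) and -1.10 (adjusted p 0.0461). Both probes are assigned to the same mRNA in the array's annotation and share no run longer than 5 bases, so the direction for the gene is not given by either alone. Their sequences are shown because they carry this opposite result.
A_72_P174066: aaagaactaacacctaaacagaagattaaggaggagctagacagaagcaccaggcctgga
A_72_P351118: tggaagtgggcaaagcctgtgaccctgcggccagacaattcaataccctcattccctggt

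STAG3, a cohesin subunit of meiosis, read 5.94, 5.79, 5.83 and 5.65 after 10 weeks, 7.85, 7.38, 7.56 and 7.25 after 19 and 7.36, 6.54 and 7.59 after 27. No early array reached a later one, and the level rose 3.27-fold to 19 weeks (adjusted p 0.0164 in limma) and 2.57-fold to 27 weeks (adjusted p 0.0262). CETN3, a centrin of centrosomes, read 5.16, 5.95, 4.77 and 5.14 at 10 weeks and 7.79, 6.70, 6.87 and 6.37 at 19 weeks. Its groups were apart, with a 3.20-fold rise (adjusted p 0.0412). SEC62, part of the channel that moves proteins into the endoplasmic reticulum, read 11.68, 12.83, 11.98 and 11.55 at 10 weeks and 13.37, 13.37, 13.51 and 13.88 at 19 weeks. The 19-week arrays were higher without overlap, a 2.87-fold rise (adjusted p 0.0333), and the log2 change of 0.77 to 27 weeks did not pass (adjusted p 0.269). ROMO1, a protein of the inner mitochondrial membrane that raises reactive oxygen species, read 10.72, 11.53, 10.98 and 10.36 at 10 weeks and 11.74, 12.21, 12.42 and 12.64 at 19 weeks. All 4 later arrays were above the early ones, a 2.56-fold rise (adjusted p 0.0382).

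Between 10 and 27 weeks, probes that fell included 6 of 28 in the cell cycle list, each again for STMN1 or TUBA1B, 3 of 18 for T cells and 3 of 28 for MHC class I and peptide loading. Of 45 probes for interferon-induced genes 3 fell, while 29 of the 45 were higher at 27 weeks (9611 of 18881 over all tested probes) and 0 of these passed. The median of these 45 went from 0.396 to 0.049 without replicate 2 at 10 weeks. QDPR, TAP1, FCGRT and IRF9 fell, and TNFSF10, LY96, ADGRE5, UBE2D1 and CD47 rose. This comparison uses the same 10-week arrays as the one before, so the pair is not independent. In limma 565 of 18881 tested probes passed (2.99%), with 123 rises (0.651%) and 442 falls (2.34%), beside a median change over all tested probes of 0.01. Named probes that passed numbered 125 for 106 genes, 12 with a rise and 94 with a fall. Arrays did not overlap for 1829 probes higher at 27 weeks (9.69%) and 2328 lower (12.3%).

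The calls again hung on single arrays: without replicate 1 or 3 at 10 weeks limma made 0 calls (2757 and 2647 probes at an unadjusted p below 0.05), without replicate 4 at 10 weeks 8, without replicate 2 or 3 at 27 weeks 48 and 1, and without replicate 1 at 19 weeks 1309. With slide as a random block there were 0 calls in limma and 2216 probes at an unadjusted p below 0.05, and with the replicate number as a block, although the labels do not tie these numbers to pigs, 346. The split by direction moved too. Rises and falls were 41 and 407 without replicate 1 and 25 and 23 without replicate 2 at 27 weeks. They were 79 and 420 without replicate 2 at 10 weeks, and 424 and 885 without replicate 1 at 19 weeks.

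CD47, the surface protein that restrains phagocytes, read 8.49, 8.24, 8.80 and 8.74 after 10 weeks, 10.35, 9.72, 9.5 and 9.31 after 19 and 9.91, 9.93 and 10.41 after 27. All 7 later arrays lay above all 4 early ones, and the level rose 2.22-fold to 19 weeks (adjusted p 0.0412 in limma) and 2.86-fold to 27 weeks (adjusted p 0.0205). ADGRE5, an adhesion receptor of leukocytes, read 6.10, 6.32, 6.12 and 5.77 after 10 weeks, 7.25, 7.05, 7.91 and 7.26 after 19 and 7.73, 7.27 and 8.53 after 27. No overlap with the early arrays was seen, and the rise was 2.45-fold (adjusted p 0.0422) and then 3.41-fold (adjusted p 0.0184). The other ADGRE5 probe, far brighter, did not pass, with log2 changes of -0.53 and 0.17. LY96, the partner of TLR4 in sensing bacterial lipid, read 8.30, 8.57, 7.69 and 8.53 after 10 weeks, 10.19, 9.86, 8.84 and 8.67 after 19 and 10.19, 9.79 and 10.21 after 27. The 27-week arrays all lay above the 10-week ones, a 3.47-fold rise (adjusted p 0.0351), while the log2 change of 1.11 to 19 weeks did not pass (adjusted p 0.103).

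TNFSF10, the death ligand TRAIL, read 6.06, 4.50, 5.38 and 4.97 after 10 weeks, 8.21, 6.04, 7.57 and 6.41 after 19 and 7.43, 6.99 and 8.06 after 27. The 27-week arrays all exceeded the early ones, a 4.81-fold rise (log2 change 2.27, adjusted p 0.0497 in limma). UBE2D1, a ubiquitin-conjugating enzyme, read 5.67, 5.64, 5.53 and 5.54 after 10 weeks, 6.46, 6.90, 6.96 and 5.91 after 19 and 7.17, 7.0 and 7.24 after 27. Its early arrays were tightly grouped and the latest were highest, a 2.92-fold rise (adjusted p 0.0149).

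FCGRT, TAP1 and SLA-1 each had a probe that fell. FCGRT, the heavy chain of the neonatal Fc receptor, read 8.45, 8.36, 8.63 and 8.80 after 10 weeks, 5.02, 7.40, 7.42 and 6.49 after 19 and 6.69, 5.89 and 5.37 after 27. Every later array was below every early one, a 5.97-fold fall to 27 weeks (log2 change -2.58, adjusted p 0.0299 in limma). A second FCGRT probe, with means of 12.74, 12.38 and 12.76, had a log2 change of 0.02 to 27 weeks that did not pass (adjusted p 0.985). TAP1, which carries peptides to MHC class I, read 6.50, 5.6, 6.42 and 6.89 after 10 weeks, 3.83, 4.33, 5.44 and 4.00 after 19 and 4.42, 3.71 and 2.93 after 27. The 10-week arrays lay above all later ones. Only 2 arrays at 19 weeks and 1 at 27 weeks were above background, so no size is given for the fall to 19 weeks (adjusted p 0.0385 in limma). None is given for the fall to 27 weeks either (adjusted p 0.017), which rests on values mainly below background. A second TAP1 probe had log2 changes of -1.74 to 19 weeks and -2.17 to 27 weeks that did not pass. SLA-1, the classical MHC class I chain of the pig, has 9 tested probes with changes to 27 weeks from -2.50 to 0.08. Of these the probe that fell most read 12.90, 12.23, 12.79 and 13.18 at 10 weeks and 11.04, 10.21 and 9.56 at 27 weeks. The week groups were apart and the fall was 5.68-fold (adjusted p 0.0421), but the probe A_72_P023806 had a log2 change of -0.14 that did not pass (adjusted p 0.819). Another probe, A_72_P322648, assigned to the same mRNA record as the first, fell to 19 weeks (log2 change -1.04, adjusted p 0.0478) and had -1.05 to 27 weeks without passing (adjusted p 0.062). The probe A_72_P023806 is assigned to a different record, of a named SLA-1 allele. The sequences of the first and that probe are shown because the result rests on which one is read, and they share no run longer than 5 bases.
A_72_P170061: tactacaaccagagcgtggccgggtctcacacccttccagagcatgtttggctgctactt
A_72_P023806: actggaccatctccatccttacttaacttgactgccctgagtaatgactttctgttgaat

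QDPR, which regenerates tetrahydrobiopterin, read 7.30, 7.22, 7.41 and 7.49 after 10 weeks, 5.40, 6.44, 6.36 and 5.39 after 19 and 5.56, 4.38 and 4.90 after 27. The early arrays differed little among themselves and lay above all later ones, with a 2.75-fold fall to 19 weeks (adjusted p 0.0385 in limma) and a 5.30-fold fall to 27 weeks (adjusted p 0.0132). A second QDPR probe had log2 changes of -0.27 and -0.36 that did not pass. IRF9, the DNA-binding part of the interferon signalling complex, read 8.32, 7.81, 8.41 and 8.43 after 10 weeks, 5.69, 7.13, 7.01 and 6.24 after 19 and 6.26, 6.19 and 6.13 after 27. Later arrays were lower without overlap, a 3.30-fold fall (adjusted p 0.0255) and then a 4.13-fold fall (adjusted p 0.0149), and its other 2 probes did not pass. TUBA1B, an alpha tubulin, has 10 tested probes, and the one that fell most to 27 weeks read 7.99, 8.24, 8.42 and 8.34 after 10 weeks, 5.69, 7.0, 6.84 and 6.21 after 19 and 6.28, 6.05 and 5.85 after 27. Its 10-week arrays lay above all later ones. The falls were 3.51-fold to 19 weeks (adjusted p 0.0189 in limma) and 4.57-fold to 27 weeks (adjusted p 0.0132). To 27 weeks 5 of the 10 probes passed, and the highest of the 10 changes was 0.13.

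**Figure D2:**
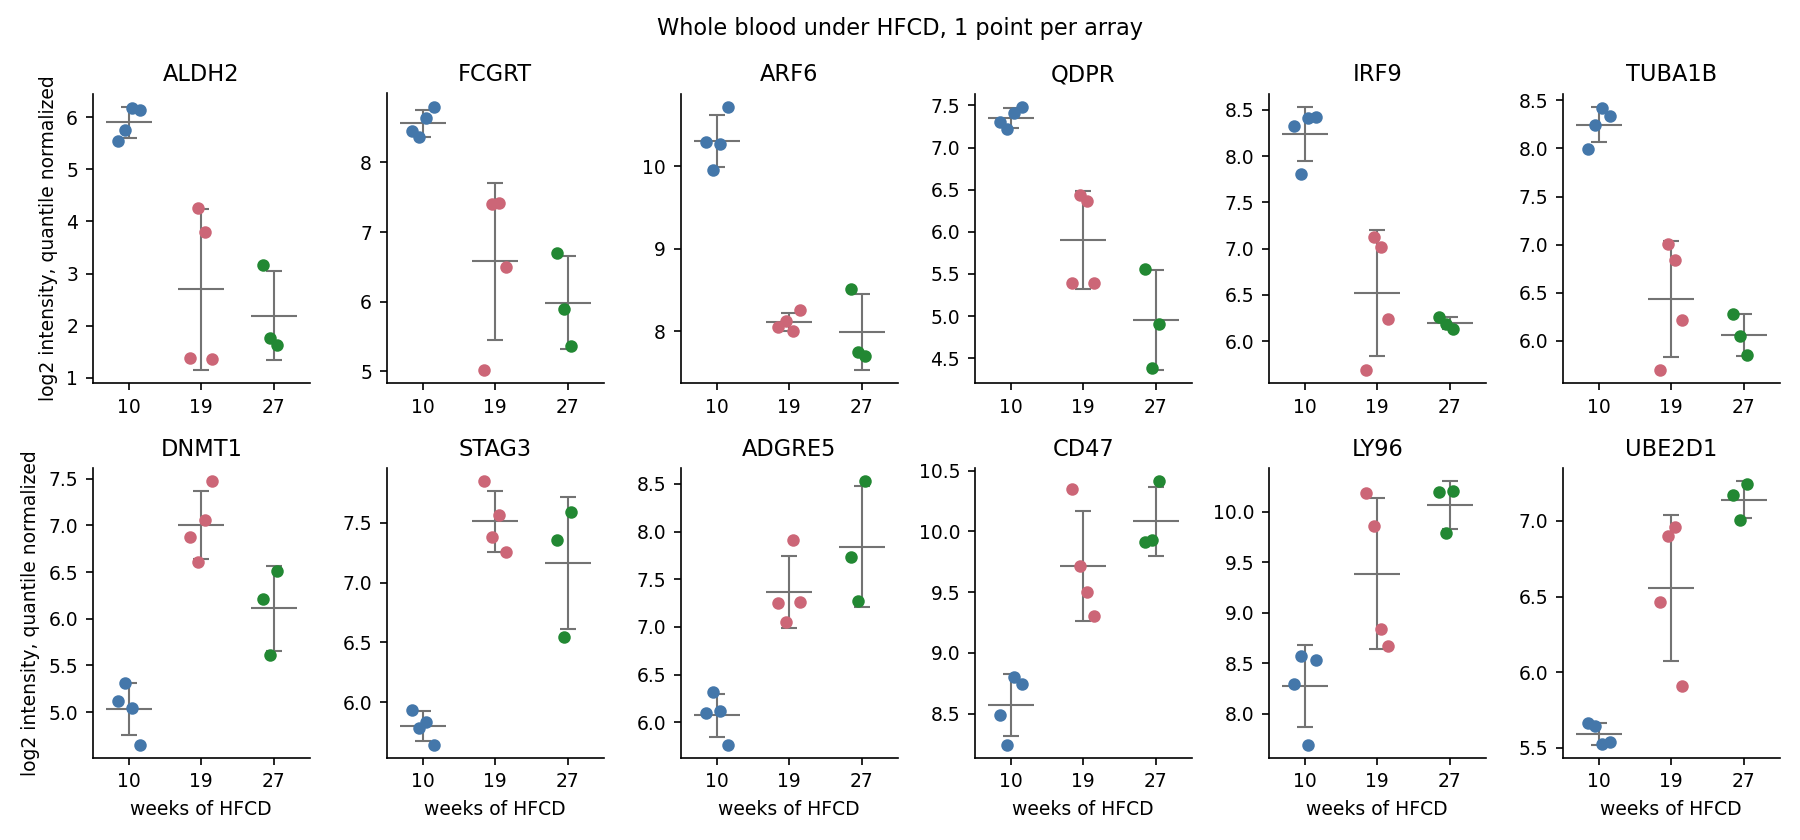
Log2 intensity, quantile normalized, of 12 genes, with each dot 1 HFCD array and the bar the mean with SD at 10, 19 and 27 weeks. CD47 rises from a mean of 8.57 to 10.08 and ARF6 falls from 10.31 to 7.99.

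Between 19 and 27 weeks no gene passed. In limma 0 of 18881 tested probes were called (0%), with 1260 at an unadjusted p below 0.05 (6.67%), of which 1011 were higher at 27 weeks and 249 lower, and a smallest adjusted p of 0.482. Arrays did not overlap for 998 probes higher at 27 weeks (5.29%) and 230 lower (1.22%). DEFB1, a defensin, had the smallest unadjusted p among higher named probes and read 8.73, 8.96, 8.52 and 7.61 at 19 weeks and 10.20, 9.60 and 9.79 at 27 weeks. All 3 later arrays were higher, a log2 change of 1.41 that did not pass (adjusted p 0.482 in limma). DHRS4, a carbonyl reductase, read 4.97, 6.38, 6.09 and 6.11 at 19 weeks and 4.30, 4.40 and 3.99 at 27 weeks. The later arrays lay lower, with a log2 change of -1.66 (adjusted p 0.486). The count was 3 without replicate 1 at 19 weeks and 2 without replicate 2 at 27 weeks.

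Over the 3 weeks together, 594 of 18881 probes differed in limma's F test (3.15%). By the order of week means, 294 of them fell throughout (49.5%, against 18.7% of all tested probes) and 64 rose throughout (10.8%, against 16.7%). Another 165 were lowest at 19 weeks (27.8%, against 37.6%) and 71 were highest then (12%, against 26.9%). Without replicate 1 or 3 at 10 weeks or replicate 3 at 27 weeks, and with slide as a random block, limma made 0 calls (2850, 2772, 3041 and 2531 at an unadjusted p below 0.05, in that order). The count was 1 without replicate 4 at 10 weeks, 367 and 289 without replicate 3 or 4 at 19 weeks, 226 without replicate 2 at 27 weeks, and 1460 without replicate 1 at 19 weeks.

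Grouped by role, named genes are described by how many tested probes passed and by the median log2 change, beside -0.09 to 19 weeks and 0.01 to 27 weeks over all tested probes. Of the 2066 tested probes with a gene name, 32 rose and 79 fell to 19 weeks and 12 rose and 113 fell to 27 weeks, with medians of -0.15 and -0.04, and over all tested probes the shares were 0.943% and 2.54%, then 0.651% and 2.34%. At an unadjusted p below 0.05 the shares over all tested probes were 22.7% to 19 weeks and 18% to 27 weeks. The share within a list was not tested against any of these. A gene named in a list passed with at least 1 probe, not always with each of its probes. Members that passed are named because they did, which was a choice made after their values were seen. No list had a passing probe between 19 and 27 weeks in limma.

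Mitochondrial and ribosomal lists had rises to 19 weeks. Respiratory chain and ATP synthase had 8 of 34 probes rise to 19 weeks, namely ATP5I by 3, ATP5L, COX7A1 and COX7A2 by 1 each, and ROMO1 by 2 probes of nearly the same sequence, with a median change of 0.70. ROMO1 is in the list but is not itself a subunit of the chain. To 27 weeks the list had 0 calls in limma and a median of 0.44. Of its 34 probes 15 had an unadjusted p below 0.05, against 18% of all tested probes. Cytosolic ribosomal proteins had 4 of 79 rise to 19 weeks, RPL23 by 2 probes that overlap in most of their sequence, with RPS21 and RPS28, at a median of 0.13. To 27 weeks 0 were called in limma (15 unadjusted, against 18% of all tested probes), at 0.15.

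Cell cycle calls came from a pair of genes. Of 28 probes 5 fell to 19 weeks and 6 to 27 weeks, at medians of -0.86 and -0.73, and every call was a probe of STMN1, which loosens microtubules, or of TUBA1B. TUBA1B has 10 of the 28 probes and STMN1 has 2, and the medians weigh each probe alike, so they lean on these genes. Proteasome had 0 calls to 19 weeks in limma (2 unadjusted) and 1 fall of 23 to 27 weeks, PSMC5, at medians of -0.21 and -0.46. Heat shock proteins and chaperones had 0 of 22 called to 19 weeks in limma (6 unadjusted, against 22.7% of all tested probes). HSP90AB1 fell to 27 weeks, and the medians were 0.28 and 0.26.

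MHC class I and peptide loading had 2 of 28 probes fall to 19 weeks and 3 to 27 weeks, with medians of -0.37 and -0.66. MHC class II had 2 of 14 fall to both weeks, with medians of -0.72 and -0.45. Both are SLA-DRB1 probes that overlap in most of their sequence. The gene has 5 tested probes, with log2 changes from -1.41 to -0.33 to 19 weeks and from -1.53 to -0.27 to 27 weeks. SLA-DRB1, a class II beta chain, read 12.17, 11.59, 12.59 and 12.90 after 10 weeks, 10.80, 11.19, 10.92 and 10.70 after 19 and 10.96, 10.22 and 11.18 after 27 on the probe that fell most. All later arrays were below the early ones, and the fall was 2.66-fold (adjusted p 0.0385 in limma) and 2.88-fold (adjusted p 0.0377).

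T cell genes had 1 of 18 probes fall to 19 weeks and 3 to 27 weeks, at medians of -0.62 and -0.83. CD3D, a chain of the T cell receptor complex, read 6.72, 6.59, 6.66 and 6.65 at 10 weeks and 5.64, 4.25 and 5.22 at 27 weeks on the probe that fell. Its early arrays were almost equal and all higher, a 3.07-fold fall (adjusted p 0.0319 in limma), but another CD3D probe had a log2 change of -0.12 that did not pass (adjusted p 0.906). CCR7, the receptor that guides lymphocytes into lymph nodes, read 12.60, 11.68, 12.22 and 12.68 at 10 weeks and 10.70, 10.10 and 10.52 at 27 weeks. The groups did not overlap, a 3.62-fold fall (adjusted p 0.0403). The mean of the T cell markers was given above and was lower at each later week, though not on every probe. The part of that level in these falls was not tested.

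B cells and plasma cells had 0 of 18 called to 19 weeks in limma (7 unadjusted) and CD72 fall to 27 weeks, at medians of -0.69 and -0.52. NK and cytotoxic cells had 0 of 10 called in either comparison in limma (1 and 4 unadjusted), at -0.17 and 0.48. Neutrophils had 0 of 15 (5 and 2 unadjusted), at -0.13 and 0.33. The next 2 lists had 1 call each. Monocytes and macrophages had TLR4 fall to 19 weeks on 1 of its 4 probes, of 37 probes and 0 called to 27 weeks in limma (5 unadjusted), at -0.21 and 0.38. Eosinophils, basophils and mast cells had KIT fall to 19 weeks of 7 and 0 to 27 weeks in limma (1 unadjusted), at -0.59 and -0.02.

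Red cell precursors had 0 of 6 called in limma, at the highest medians of any list, 1.05 and 0.64. Unadjusted, 4 passed to 19 weeks and 0 to 27 weeks, against 22.7% and 18% of all tested probes. Platelets had TBXAS1 fall to 19 weeks of 12 and 0 to 27 weeks in limma (1 unadjusted), at -0.56 and 0.03. The platelet level of replicates 1 and 4 at 19 weeks, given above, moves with the first of these and its part was not tested.

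Innate and signalling lists had few calls. Interferon-induced genes had 2 of 45 fall to 19 weeks and 3 to 27 weeks, IRF9 and TAP1 with USP18 at the later time, at medians of 0.14 and 0.40. Of its 45 probes 29 were higher at each later week (8237 and 9611 of 18881 over all tested probes), while the members that passed fell, USP18 by 1 of 2 probes. Toll-like and other innate receptors had TLR4 fall to 19 weeks and LY96 rise to 27 weeks of 24, at 0.11 and 0.40. Cytokines and their receptors had IFNAR1 fall to 19 weeks and TNFSF10 rise to 27 weeks of 28, at -0.15 and 0.07. Chemokines and chemokine receptors had 0 of 22 called to 19 weeks in limma (3 unadjusted) and CCR7 fall to 27 weeks, at 0.05 and 0.30. Complement had 0 of 10 in limma (0 and 2 unadjusted), at 0.06, a sign that flips with the scaling, and 0.43.

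Sterol lists had 1 call. Cholesterol synthesis had 0 of 8 called in limma (0 and 0 unadjusted), at medians of -0.58 and -0.16. Sterol sensing and LDL uptake had NPC2, which moves cholesterol out of lysosomes, fall to 19 weeks of 11 and 0 to 27 weeks in limma (3 unadjusted), at -0.48 and -0.43. LXR targets and cholesterol efflux had 0 of 9 in limma (3 and 3 unadjusted), at -0.63 and -0.67. ABCA1, the exporter of cellular cholesterol, read 11.89, 11.28, 12.21 and 12.16 after 10 weeks, 12.32, 11.62, 11.91 and 11.80 after 19 and 12.47, 12.33 and 12.49 after 27. The last week was highest without overlap with the first, a log2 change of 0.54 that did not pass (adjusted p 0.321).

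Fatty acid use and lipid droplets had 4 of 31 probes fall to 19 weeks, among them HADHB and 2 probes of CPT1B, and 2 to 27 weeks, HADHA and HADHB, at medians of -0.50 and -0.61. HADHA, the alpha subunit of the enzyme complex that shortens long fatty acids, read 6.35, 6.13, 6.33 and 6.51 after 10 weeks, 3.40, 5.69, 5.45 and 4.68 after 19 and 4.45, 3.81 and 3.79 after 27. All later arrays were lower and only some were above background, at a log2 change of -2.31 to 27 weeks (adjusted p 0.028 in limma), on 1 of 3 probes. Glycolysis had GPI fall to 19 weeks and GPI and TPI1 to 27 weeks of 10, at -0.60 and -0.41. Antioxidant enzymes had 0 of 36 called to 19 weeks in limma (7 unadjusted) and HMOX2 fall to 27 weeks, at -0.02, a sign that flips with the scaling, and 0.03. Glucocorticoid response and body clock had 0 of 6 in limma (1 and 1 unadjusted), at -0.10 and 0.06.

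Tissue lists outside blood were kept as a check on other sources of RNA. Skeletal muscle had 2 of 13 fall to 19 weeks and 3 to 27 weeks, all of them TPM3, a tropomyosin that blood cells also make, at -0.48 and -0.38. Smooth muscle and vessel wall had 0 of 23 in limma (6 and 4 unadjusted), at -0.60 and -0.13. Liver had 0 of 11 in limma (1 and 0 unadjusted), at 0.46 and 0.54. Adipose tissue had 0 of 14 in limma (2 and 1 unadjusted), at -0.15 and -0.30.

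The medians of the lists depend on single arrays. Leaving out some array moved the median by over 1.5 times or turned its sign in 22 of 31 lists to 19 weeks and in 22 of 31 to 27 weeks. For interferon-induced genes the median to 27 weeks was 0.049 without replicate 2 at 10 weeks. For platelets the median to 19 weeks was -0.142 without replicate 1 and -1.147 without replicate 3 at 19 weeks. Several signs turned. To 19 weeks and without replicate 2 at 10 weeks, it turned for interferon-induced genes (-0.069), Toll-like and other innate receptors (-0.06), complement (-0.347) and antioxidant enzymes (0.026). Without replicate 1 at 19 weeks it turned for Toll-like and other innate receptors (-0.123), complement (-0.11), chemokines and chemokine receptors (-0.013), ribosomal proteins (-0.016) and antioxidant enzymes (0.087). Replicate 3 at 19 weeks turned complement, chemokines and Toll-like receptors when left out, and replicate 4 at 19 weeks turned NK and cytotoxic cells (0.038), monocytes and macrophages (0.067) and chemokines. Chemokines also turned without replicate 1 or 4 at 10 weeks, Toll-like receptors without replicate 3 at 10 weeks, and adipose tissue without replicate 1 at 27 weeks (0.04). To 27 weeks platelets turned without replicate 2 or 3 at 10 weeks or replicate 2 at 27 weeks, antioxidant enzymes without replicate 4 at 10 weeks or replicate 2 or 3 at 27 weeks, glucocorticoid response and body clock without replicate 2 at 10 weeks (-0.107) or replicate 1 at 27 weeks (-0.08), and smooth muscle and vessel wall without the latter (0.122). The median over all tested probes to 27 weeks also turned without replicate 2 at 10 weeks (-0.046) or replicate 1 at 27 weeks (-0.004).

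**Figure D3:**
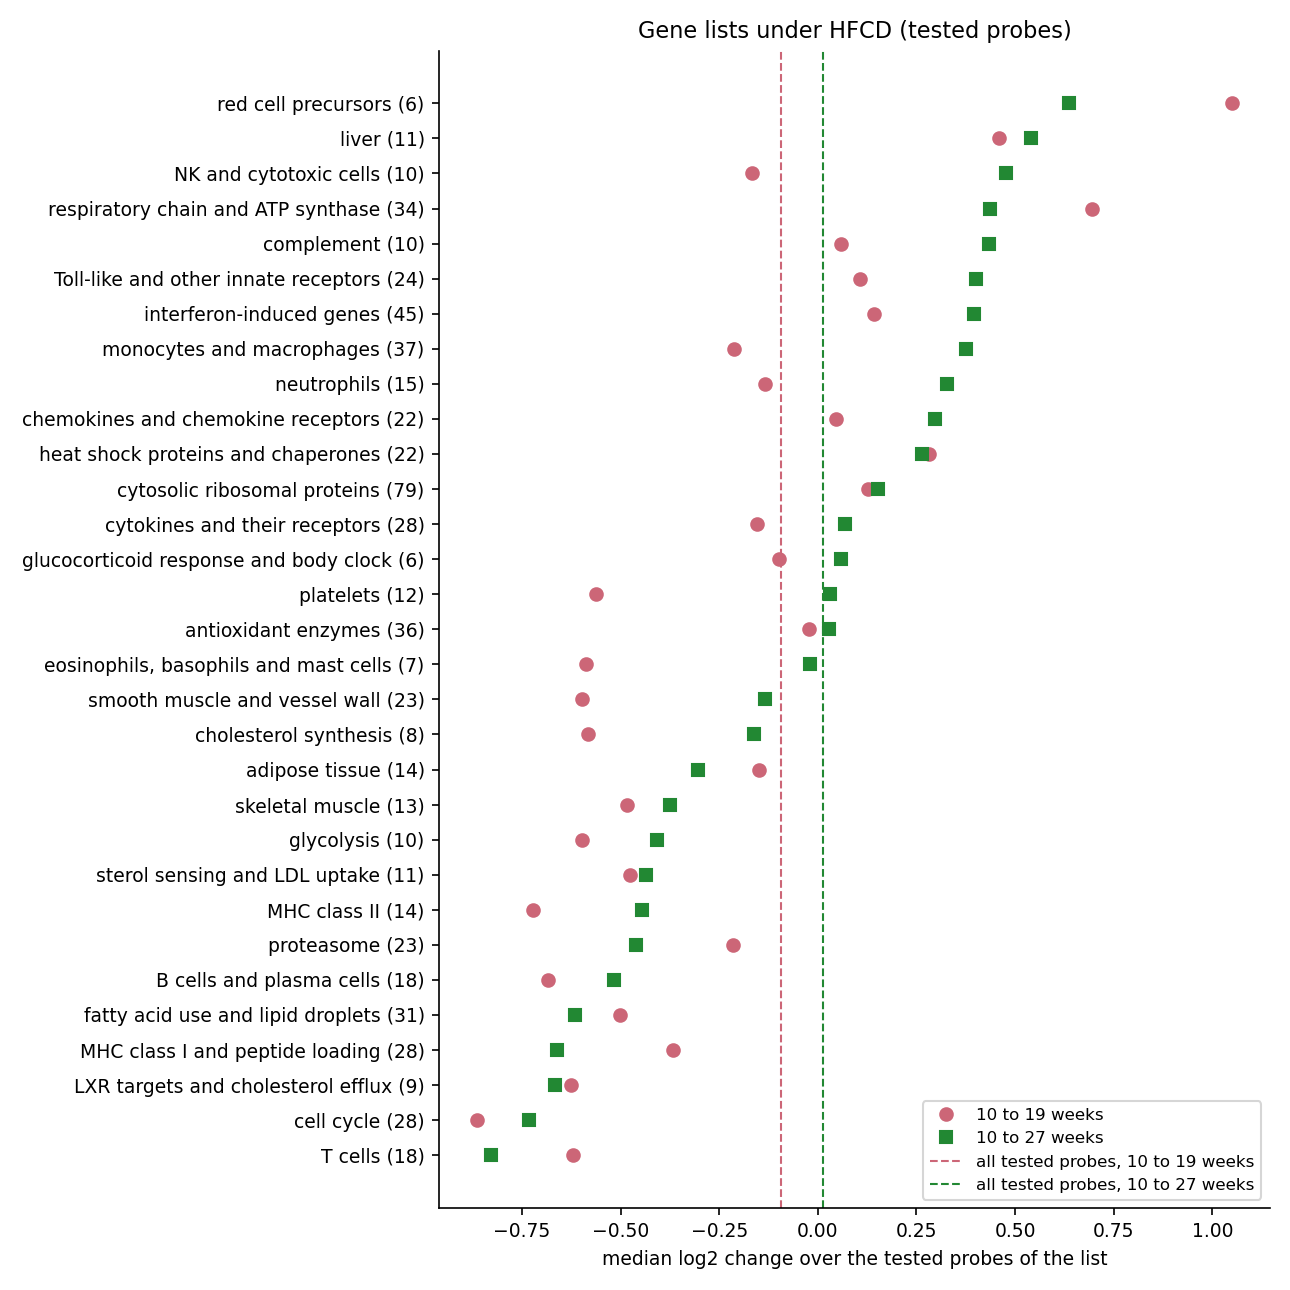
Median log2 change under HFCD of each gene list's tested probes (number in brackets) to 19 weeks and to 27 weeks, with dashed lines at the median of all tested probes. Red cell precursors lie highest to 19 weeks (1.05) and cell cycle lowest (-0.86). Each probe weighs alike, and TUBA1B alone has 10 probes in the cell cycle list.

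Probe composition ran along with direction. The median GC content was 40% over all tested probes, 38.3% in those that rose and 43.3% in those that fell to 19 weeks, and 38.3% and 45% to 27 weeks. Probes with at most 35% GC had a median change of 0.15 to 27 weeks and those with at least 43.3% had -0.19. Its part in the calls was not tested.

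Several genes varied widely at 19 weeks, where 1 array lay far from the other 3. SREBF1, the transcription factor of lipid synthesis, read 10.93, 12.41, 12.41 and 10.45 after 10 weeks, 4.48, 12.99, 13.10 and 12.08 after 19 and 10.08, 10.94 and 7.01 after 27. Replicate 1 at 19 weeks was the lowest of all. The bases of this probe are mostly G and C, and the part of probe composition in that value was not tested. THBS1, a platelet adhesion protein, read 8.63, 11.59, 9.91 and 7.56 after 10 weeks, 8.14, 12, 12.28 and 12.11 after 19 and 9.90, 12.85 and 11.55 after 27. The same array was low within its week, and the weeks overlapped. SMTN, a smooth muscle protein, read 6.72, 10.34, 10.67 and 10.74 at 19 weeks. Replicate 1 was again the array apart. UPK2, a bladder surface protein, read 6.37, 11.67, 11.65 and 11.56 at 19 weeks. CRP, an acute phase protein of liver, read 6.09, 9.73, 10.09 and 10.12 at 19 weeks. Replicate 1 was lowest in each, and none passed a test between weeks.

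Antiviral genes varied between arrays of every week. MX1, which blocks virus replication, read 15.20, 13.06, 14.73 and 14.51 after 10 weeks, 15.61, 14.04, 14.83 and 14.50 after 19 and 14.59, 15.01 and 14.71 after 27 on 1 of its probes. RSAD2, another antiviral effector, read 11.31, 7.50, 10.04 and 9.15 after 10 weeks, 12.54, 9.58, 11.61 and 10.66 after 19 and 9.5, 11.31 and 11.61 after 27. CXCL10, an interferon-driven chemokine, read 11.16, 7.26, 9.63 and 8.55 after 10 weeks, 13.60, 9.24, 10.71 and 10.07 after 19 and 9.16, 9.95 and 10.91 after 27. At 10 and 19 weeks replicate 2 was lowest and replicate 1 highest in all 3 genes, at 27 weeks replicate 1 was lowest in all 3, the weeks overlapped, and no change passed (adjusted p 0.287 to 19 weeks and 0.512 to 27 weeks for RSAD2 in limma).

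Control pigs were sampled at the same weeks and ages. Their arrays share the HFCD scan days at 10 and 27 weeks, but at 19 weeks 3 of the 4 control arrays were scanned on another day than the HFCD arrays, so they give no background for scan day there. In the control group 1565 of 17690 tested probes passed to 19 weeks (8.85%), 308 between 19 and 27 weeks (1.74%) and 3458 from 10 to 27 weeks (19.5%). Control counts were between 436 and 1023 for 10 to 19 weeks without replicate 2, 3 or 4 at 10 weeks or replicate 3 or 4 at 19 weeks, and between 1836 and 2035 for 10 to 27 weeks without replicate 2 or 4 at 10 weeks or replicate 1 at 27 weeks. Between 19 and 27 weeks it was 24, 123 and 31 without replicate 2, 3 or 4 of control at 19 weeks, 115 and 40 without replicate 1 or 2 at 27 weeks, 647 without replicate 4 at 27 weeks, and 0 in limma without replicate 3 at 27 weeks (1700 at an unadjusted p below 0.05). Of the HFCD calls to 27 weeks 483 were tested in control pigs, and 482 of them had the same sign there (99.8%, against 72.3% of all probes). Called in both with the same direction were 435, which is 77% of the HFCD calls and 12.6% of the control calls, and 0 were called in opposite directions. To 19 weeks 566 of the HFCD calls were tested in control pigs, and 540 of them had the same sign there (95.4%, against 66.4% of all probes). Called in both with the same direction were 272, or 41.4% of the HFCD calls and 17.4% of the control calls, and HFCD calls not tested in control pigs count in both shares of the HFCD calls. The diets share no arrays.

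Single genes can be set side by side in both diets. The log2 change of ARF6 to 27 weeks was -2.32 under HFCD and -2.29 under control feed. For QDPR the values were -2.40 and -2.56, and for FCGRT -2.58 and -3.25. For CD47 they were 1.52 and 1.57, and for LY96 1.79 and 2.51. Other genes were further apart to 19 weeks, SEC62 with 1.52 under HFCD and 0.09 under control feed. ROMO1 had 1.35 and 0.23, and no difference between diets passed its own test.

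**Figure D4:**
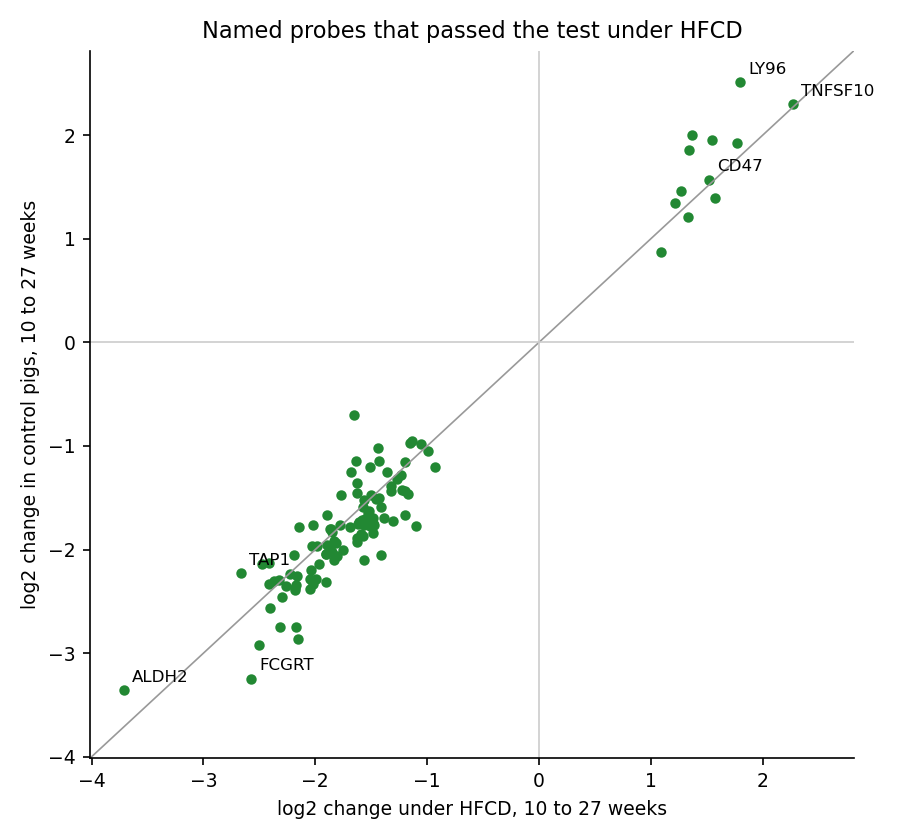
Log2 change from 10 to 27 weeks under HFCD (horizontal) against the change under control feed (vertical) for the 111 named probes called under HFCD and tested in both, with the line of equal change. All 111 points have the same sign in both diets.

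The direct test of the difference between diets made no call. For HFCD minus control, 0 of 19246 probes passed in limma in each of the 3 comparisons (0%), with 1534 at an unadjusted p below 0.05 from 10 to 19 weeks (7.97%), 509 from 19 to 27 weeks (2.64%) and 376 from 10 to 27 weeks (1.95%). For HFCD minus HFCSD, 0 of 19200 passed in limma (0%), with 559, 1995 and 183 at an unadjusted p below 0.05 (2.91%, 10.4% and 0.953%). ROMO1 had a difference of 1.13 to 19 weeks that did not pass (adjusted p 0.601). DHRS4 had a difference of 2.62 (adjusted p 0.247) and WNT10B of -2.26 (adjusted p 0.311) to 19 weeks. With scan day as a block, which leaves a single control array at 19 weeks to compare with HFCD, HFCD minus control had 1 call from 10 to 19 weeks, 2 from 19 to 27 weeks and 0 from 10 to 27 weeks in limma, with 650, 871 and 461 at an unadjusted p below 0.05. A p that misses the threshold does not show that the diets had the same course. Against control the count was 5 without replicate 1 of control at 10 weeks and 1 without replicate 2 of HFCD at 10 weeks (both 10 to 19 weeks), and 3 and 1 without replicate 1 of control at 19 weeks or replicate 4 of control at 27 weeks (both 19 to 27 weeks). Against HFCSD it was 18 without replicate 1 of HFCD at 19 weeks, 2 without replicate 3 of HFCSD at 19 weeks and 1 without replicate 2 of HFCD at 27 weeks, each from 19 to 27 weeks. It was also 2 from 10 to 19 weeks without replicate 3 of HFCSD at 19 weeks, and 1 from 10 to 27 weeks without replicate 2 of HFCD at 27 weeks.

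The unadjusted counts of these differences hung on single arrays as well. For HFCD minus control they ran from 950 without replicate 3 to 2819 without replicate 1 of control at 19 weeks for 10 to 19 weeks. For 19 to 27 weeks they ran from 290 without replicate 2 of HFCD at 27 weeks to 1063 without replicate 1 of control at 19 weeks. For 10 to 27 weeks they ran from 216 without replicate 4 of HFCD at 10 weeks to 1113 without replicate 1 of HFCD at 27 weeks, and slide as a random block gave 2082. For HFCD minus HFCSD they ran from 326 without replicate 4 of HFCD at 10 weeks to 3708 without replicate 1 of HFCD at 19 weeks for 10 to 19 weeks. Without the latter array the count for 19 to 27 weeks was 6339, and it was 1035 without replicate 1 of HFCD at 27 weeks. For 10 to 27 weeks it ran from 129 without replicate 4 of HFCSD at 10 weeks to 451 without replicate 3 of HFCSD at 27 weeks.

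A few strong probes have no gene name. A_72_P065146, described in the array's annotation as a fragment like an acidic ribosomal phosphoprotein, read 3.1, 3.22, 1.58 and 1.79 after 10 weeks, 5.95, 5.87, 5.62 and 6.19 after 19 and 3.35, 5.78 and 3.99 after 27. It was above background on no array at 10 weeks and all 4 at 19 weeks, the group through which it entered the test, a rise of at least 6.08-fold (adjusted p 0.0173 in limma). A_72_P316623 read 2.20, 1.96, 1.56 and 2.59 at 10 weeks and 5.11, 4.62 and 4.60 at 27 weeks. Only the last week was above background, a rise of at least 2.77-fold (adjusted p 0.0119). A_72_P350070 read 7.11, 6.93, 7.51 and 7.41 at 10 weeks and 4.79, 4.20 and 2.64 at 27 weeks. It was lower on all later arrays, 2 of 3 above background, at a log2 change of -3.36 (adjusted p 0.0299).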

How the data were processed

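RNA from whole blood drawn into PAXgene tubes was labelled with Cy3 from 0.5 micrograms and measured on Agilent one-colour pig arrays. The authors extracted intensity values with Feature Extraction (10.5.1.1 per the file headers, 9.5.3.1 in the deposited processing notes), and per the file headers each array has 45220 spots, of which 1417 are controls. The authors also deposited a table of quantile normalized linear intensity, used as an alternative. The deposited values are not on a log2 scale, and log2 was taken here.

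The processed signal of each spot was logged to base 2, and the 45 arrays were given a common distribution by quantile normalization. Spots that the software marked as outliers were dropped, and repeated spots were averaged into 43603 probes. Gene names come from the annotation in the files matched to the reference tables: 3538 probes have 1 symbol, for 2366 genes, and 40057 have none. A probe was tested if well above background on every usable array of at least 1 group, with 2 or more usable arrays per group. limma 3.58.1 in R 4.3.3 fitted the 3 HFCD weeks together, with Benjamini-Hochberg adjustment at 0.05 over all tested probes, and fits of 6 groups gave the differences from control and HFCSD. Similarity of arrays and the share of spots above background were tested by exact permutation of week labels. The code was tested on simulated data. Figures were drawn with matplotlib 3.10.9. The number of arrays limits the precision.

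Named genes were, per comparison, the 8 largest rises and 8 largest falls among passing probes with 1 symbol whose weeks do not overlap, 1 probe per gene. Where a direction had fewer than 4, probes with the smallest unadjusted p filled it as values. For differences between diets 3 and 3 were taken, and for each gene list the 3 largest changes from 10 to 27 weeks and the highest mean. Genes of the study's tables and at most 2 unnamed probes per direction were added. Results of some genes are not reported here. Members and lists were chosen with earlier results of these data known. Alternatives were scaling to the 75th percentile, normalization within the fit, normexp with an offset of 50, the deposited table, 3 filters on dim probes, Spearman's correlation, slide, scan day and replicate blocks, a covariate, a fit of all diets, fits of only 2 weeks, the test and fold limit of the methods, and leaving out each array.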

Additional observations from a re-analysis of the deposited data

Results flagged for a closer look

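Within groups of 4 HFCD arrays, each value below is the gap between the most distant array and its nearest neighbour, divided by the whole range, where it passed the 95% limit of Dixon's test, and 3 arrays at 27 weeks are too few for this measure. Chance puts about 1 in 20 groups past that limit, and 11 groups passed it, 10.2% of those looked at. The correlation of level with GC content at 19 weeks had a ratio of 0.991, with replicate 1 apart. UPK2 at 19 weeks had 0.979, with replicate 1 low. HBE1 at 19 weeks had 0.984, with replicate 1 low. THBS1 at 19 weeks had 0.934, with replicate 1 low. CRP at 19 weeks had 0.902, with replicate 1 low. SMTN at 19 weeks had 0.900, with replicate 1 low. SREBF1 at 19 weeks had 0.882, with replicate 1 low. SIRT3 at 19 weeks had 0.860, with replicate 1 high, though that probe was well above background on no array of the week. PF4 at 10 weeks had 0.874, with replicate 3 high. The monocyte marker level at 10 weeks had 0.852, with replicate 4 high. IRF9 at 10 weeks had 0.834, with replicate 2 low.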

How the results depend on the processing

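Of 82 calls of named genes 0 reversed under any alternative, and 0 were kept with slide as a random block or without replicate 1 or 3 at 10 weeks. Many of these calls were named because the arrays of their weeks do not overlap. For those, leaving out an array could not turn the sign, so the absence of reversals there was set by the choice. The 4 scalings and 3 filters on dim probes kept each HFCD count within 1.5 times, but of the 82 calls 39 were kept with no filter, 53 with the weaker flag and 67 to 82 with the scalings. With slide as a random block (correlation within slides 0.658) limma made 0 calls from 10 to 19 weeks, from 10 to 27 weeks and in any week, with 3290, 2216 and 2531 at an unadjusted p below 0.05. Replicate numbers were not taken as pairs. The r of deviations was above 0.1 in 7 of 10 same-numbered pairs (from -0.432 to 0.606, and at least 0.391 for replicates 1 and 2). Pairs with different numbers ran from -0.702 to 0.673, the highest for replicate 4 at 10 weeks with replicate 1 at 19 weeks. Which arrays share a pig is therefore undetermined. With the replicate number as a block there were 476 calls from 10 to 19 weeks, 346 from 10 to 27 weeks and 156 in any week, and the counts of 0 stayed at 0. With the share of spots above background as a covariate there were 0 calls to 19 weeks and 1038 to 27 weeks. All 33 whole blood arrays in 1 fit gave 1170, 1031 and, in any week, 1303. With only the 2 weeks compared in the fit there were 377 and 1251. The methods' test without adjustment and with its fold limits gave 1261, 169 from 19 to 27 weeks and 1557, and 229 and 153 after adjustment. Scan day as a block, with a single control array left at 19 weeks, gave 1 call for HFCD minus control from 10 to 19 weeks and 2 from 19 to 27 weeks, and could not be fitted for control alone, since no day holds more than 1 control group.

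Leaving out 1 array at a time gave 0 to 1438 calls from 10 to 19 weeks, 0 to 3 from 19 to 27 weeks, 0 to 1309 from 10 to 27 weeks and 0 to 1460 in any week. For HFCD minus control it gave 0 to 5, 0 to 3 and 0 to 0 in the order 10 to 19, 19 to 27 and 10 to 27 weeks, for HFCD minus HFCSD 0 to 2, 0 to 18 and 0 to 1, and for control 436 to 2079, 0 to 647 and 1836 to 4222. The within minus between week difference in r ran from -0.00117, reversed without replicate 4 at 10 weeks (permutation p 0.51), to 0.0229 without replicate 1 at 19 weeks (permutation p 0.02). F for the share above background ran from 3.35 to 8.33 and no longer passed in 7 of 11 cases. The cause of these moves was not tested. Signal over background limits the test to 18881 of 43603 probes.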
